A study of Mus musculus with 15 samples.

Results

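In bone marrow-derived macrophages (BMDMs) of mouse, 1443 intronic regions carried acetylation of histone H3 at lysine 27 (H3K27ac) in both libraries lacking the histone variant H3.3 and in neither wild-type library. They were chosen from a merge of 4 region lists on chromosomes 1 to 19 and X, which gave 89773 merged regions, 61425 of them intronic. A region was kept when it shared at least 1 bp with each knockout library and none with either wild-type library, and when its midpoint lay in an intron of a protein-coding gene, outside every exon and outside the promoter window from 1 kb upstream to 100 bp downstream of any start site. They made up 2.35% of intronic regions and 48.2% of the 2995 regions called only in knockout cells anywhere in these chromosomes. In the opposite direction, 9318 intronic regions, or 15.2%, were called in both wild-type and neither knockout library, and 9173 were called in all 4. These sets are named gained, lost and kept below. The wild-type lists held 61764 and 54630 regions and the knockout lists 35018 and 41444, so gained and lost counts come from lists of unequal length. The differential binding analysis of the study, over all its peaks, listed more increased than reduced H3K27ac peaks in knockout cells. Presence or absence of H3K27ac chose the gained regions, so every H3K27ac value of theirs is a description and carries no test.

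The marks were profiled by CUT&RUN, in which an antibody directs a nuclease to chromatin and the released fragments are sequenced. Cells were grown from bone marrow of C57BL/6 mice, male and female, aged 8 to 10 weeks, in L929-conditioned medium for 6 to 8 days. Wild-type (WT) cells carried floxed alleles of both H3.3 genes, H3f3a fl/fl and H3f3b fl/fl, without Cre, and H3.3cKO (cKO) cells carried the same alleles with LysM-cre/cre, a Cre inserted at the myeloid gene Lyz2. This driver acts in cells that express Lyz2, and the study describes the deletion of H3f3b in its cKO samples as complete or partial, without giving which holds for these libraries. H3K27ac and trimethylation of lysine 36 (H3K36me3) were each profiled in 2 WT and 2 cKO libraries, and H3.3-HA, an HA-tagged H3f3b product in cells with intact H3.3, in 2 further libraries. The labels number the libraries as biological replicates and give no animal for each, so n = 2 stands for libraries.

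H3K27ac is placed by the acetyltransferases CBP and p300 on active promoters and enhancers, and many enhancers of macrophages lie in introns of the gene they act on or of a neighbor. H3K36me3 is placed by SETD2 behind elongating RNA polymerase and covers the bodies of transcribed genes. H3.3 is the form of histone H3 that is assembled into chromatin outside DNA replication, and it accumulates at active promoters, enhancers and gene bodies. The interferon response genes that recur below encode antiviral and immune proteins and are switched on by transcription factors such as the IRF family, which read copies of the letters GAAA, the interferon-stimulated response element (ISRE).

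Library depth ranged from 5365319 to 29988098 tags, with the fewest in the H3.3-HA libraries, at 6951296 and 5365319. The cKO H3K27ac libraries held 29988098 and 25560110 tags and 35018 and 41444 regions, against 28366343 and 16444864 tags and 61764 and 54630 regions in WT. The share of tags that fell in regions was 11.8% and 17.8% in cKO and 24.1% and 21.5% in WT, so the gained regions were called in the libraries with the fewer regions. With the H3K27ac lists cut to the length of the shortest, keeping the widest regions, 2063 intronic regions met the rule. The part that the share of tags in regions, or the separate IgG control of each genotype, plays in the gained set was not tested. H3K36me3 cKO replicate 1 stood apart, with 19.3% of tags in regions and 90.6 Mb covered, where the other 3 H3K36me3 libraries had 46.5% to 50.2% and 163 to 170 Mb. Of 10 macrophage markers, including Spi1, Csf1r, Itgam and Cd68, all 10 carried an H3K27ac region in each WT library and in cKO replicate 2, and 9 in cKO replicate 1, where Mertk had none. The length covered differed, since H3K27ac covered 61.7% and 67.3% of Msr1 in WT and 24.4% and 16.6% in cKO. It covered 88.4% and 76.9% of the Lyz2 gene in WT and 24.1% and 12.8% in cKO. Lyz2 carries the Cre insertion in cKO cells and not in WT cells, so the insertion and the loss of H3.3 cannot be told apart there. Adgre1, Itgam and Mertk were also covered less in both cKO than in both WT libraries, Cebpa and Cd68 more, while the ranges of Spi1 and Csf1r overlapped. Of 18 progenitor markers 6 and 5 carried a region in WT and 7 and 7 in cKO. Of 17 neutrophil markers 4 and 4 did in WT and 5 and 9 in cKO. In the other lists the WT and cKO counts met or overlapped. They were 4 and 6 against 5 and 7 of 17 B cell markers, and 1 and 2 against 2 and 3 of 12 mast cell markers. Dendritic cell markers had 5 and 8 against 7 and 7 of 17, and T and natural killer cell markers 3 and 3 against 2 and 3 of 24. Fibroblast markers had 3 and 2 against 1 and 4 of 18. In bulk cells a region present in more cells and a stronger mark per cell cannot be told apart. H3f3a itself held a gained region of 1522 bp in its last intron (chr1:180809260-180810781), called over 1522 bp in cKO replicate 1 and 646 bp in cKO replicate 2. Across the 10 libraries no region touched exon 2 of H3f3a, the floxed exon, so the lists do not check its deletion.

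The sequences below come from gained regions of interferon response genes that hold the ISRE core GAAANNGAAA, where N is any base. They are shown because 5 interferon hosts had such a match anywhere in the region, and 4 of these are given. Each is a window of mm10 of equal length read 5′ to 3′ on the strand given, centred on the match nearest to the middle of the region, with the match in capitals.
Ifi44, chr3:151748614-151748714, plus strand: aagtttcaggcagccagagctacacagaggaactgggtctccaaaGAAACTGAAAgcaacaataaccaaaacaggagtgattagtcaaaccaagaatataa
Ifi213, chr1:173599291-173599391, minus strand: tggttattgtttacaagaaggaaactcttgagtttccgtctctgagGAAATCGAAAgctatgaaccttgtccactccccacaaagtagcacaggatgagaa
Slfn5, chr11:82952767-82952867, plus strand: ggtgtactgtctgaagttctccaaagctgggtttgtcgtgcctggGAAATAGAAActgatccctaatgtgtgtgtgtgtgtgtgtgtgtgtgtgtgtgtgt
Herc6, chr6:57657774-57657874, plus strand: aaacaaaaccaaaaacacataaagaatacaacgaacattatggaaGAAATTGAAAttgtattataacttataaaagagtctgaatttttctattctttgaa
The Ifi44, Ifi213 and Herc6 regions each held 1 match and the Slfn5 region 3. The Ifi213 window lies just upstream of its start site, in the part of the region that reached the promoter window.

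A second set shows the palindrome TGACGTCA, the cyclic AMP response element (CRE), and the PU.1 site GAGGAAGT, whose shares among gained regions are described further on. Those shares count the central 300 bp of each region, while the matches here were taken from anywhere in it. The Itpkb and Fam214b matches lie outside that central window, as do all the ISRE matches printed above. Capitals mark the match as before.
Gbp6, CRE, chr5:105293013-105293113, plus strand: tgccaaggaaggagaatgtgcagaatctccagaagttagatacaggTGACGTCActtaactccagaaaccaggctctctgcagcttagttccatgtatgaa
Itpkb, CRE, chr1:180387593-180387693, plus strand: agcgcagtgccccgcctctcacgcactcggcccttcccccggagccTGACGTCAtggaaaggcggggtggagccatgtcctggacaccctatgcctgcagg
Fam214b, PU.1, chr4:43041409-43041509, minus strand: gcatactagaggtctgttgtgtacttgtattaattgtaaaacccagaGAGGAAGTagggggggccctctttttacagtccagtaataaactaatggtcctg

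The gained regions were short. Their median merged width was 827 bp, with quartiles of 652 and 1184 bp and a range from 501 to 7393 bp, while lost regions had a median of 1016 bp and kept regions 3247 bp. Within them cKO replicate 1 called a median of 628 bp (501 to 6679) and cKO replicate 2 a median of 671 bp (501 to 7192), covering 73.4% and 88.4% of the summed length of 1.53 Mb. A single call of 501 bp, the shortest that these lists hold, was all that cKO replicate 1 contributed to 687 regions and cKO replicate 2 to 530, and 362 regions, or 25.1%, rested on such a call in both. Replicate 1 called the longer stretch in 325 regions.

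Distance to the nearest WT region varied widely. The nearest WT call lay a median of 1876 bp away, with quartiles of 653 and 6645 bp, and 504 gained regions (34.9%) had a WT call within 1 kb while 289 (20.0%) had none within 10 kb. Just inside the rule stood 4 regions with a WT call at most 10 bp away, the closest at 1 bp. Just outside it stood 1532 intronic regions called in both cKO libraries and in a single WT library, 936 in WT replicate 1 and 596 in WT replicate 2, of which 551 failed the rule through a single WT call of 501 bp. Lost regions lay farther from the nearest cKO call, with a median of 3811 bp and 17.6% within 1 kb.

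**Figure D1:**
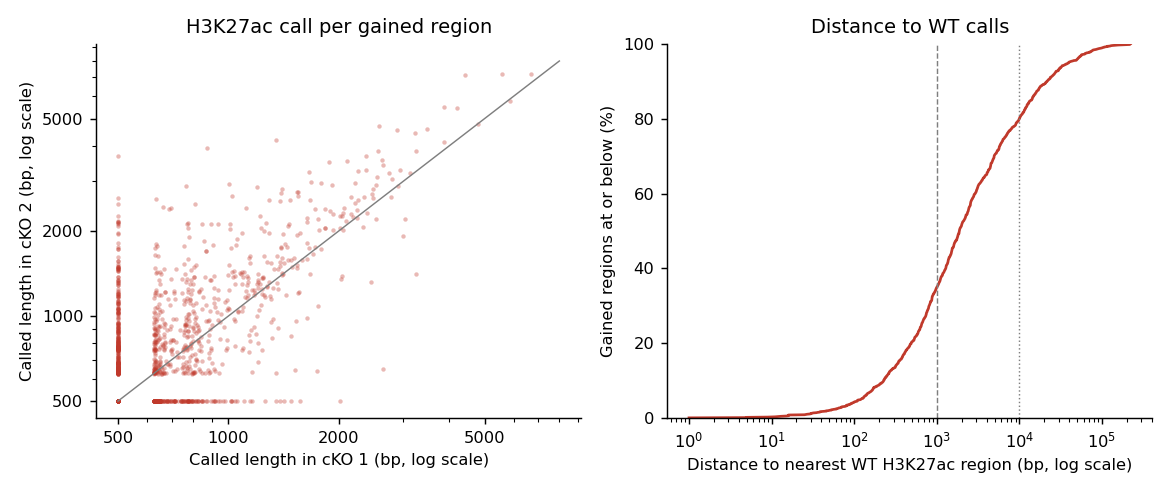
Left, called H3K27ac length in cKO replicate 1 (x axis, bp, log scale) against cKO replicate 2 (y axis, bp, log scale), with each point a gained intronic region and the line marking equal lengths. Most points lie above the line or on the 501 bp edge of either library. Right, the cumulative percent of gained regions (y axis) by distance to the nearest WT H3K27ac region (x axis, bp, log scale), with lines at 1 kb, where 34.9% have been reached, and at 10 kb, beyond which 20.0% lie.

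The gained regions lay closer to start sites than the lost regions. The median distance from the midpoint to the nearest start site of the host gene was 16612 bp, against 31226 bp for lost and 13237 bp for kept regions. Within 2 kb of a host start site lay 15.3% of gained regions (Wilson 95% interval 13.5 to 17.3%), 3.11% of lost regions (2.78 to 3.48%) and 24.1% of kept regions (23.2 to 24.9%). First introns held 36.5% (34.1 to 39.0%) of gained, 20.7% (19.9 to 21.6%) of lost and 47.5% (46.5 to 48.5%) of kept regions. All intervals cover counting error only, since regions of the same libraries are not replicates.

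Although every midpoint was intronic, 174 gained regions (12.1%) extended into a promoter window, as did 186 of the 9318 lost and 3083 of the 9173 kept regions. With such regions left out of every set, first introns held 30.0% (27.6 to 32.6%) of 1269 gained, 20.0% (19.2 to 20.8%) of lost and 31.0% (29.8 to 32.1%) of kept regions. Mean GC content of the central 300 bp was 45.5% in gained, 41.9% in lost and 45.1% in kept regions, and the mean number of CpG per 100 bp was 1.44, 0.749 and 1.44. Without the promoter-reaching regions these became 44.1%, 41.8% and 43.6% for GC and 0.969, 0.727 and 0.934 for CpG. Bases that the assembly marks as repeats made up 19.1% of the central windows of gained and 20.9% of those of lost regions. Across chromosomes the gained share of intronic regions ran from 1.64% on chromosome 12 to 3.08% on chromosome 8, and the X chromosome had 19 gained regions, 2.22% of its intronic regions.

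H3.3-HA, which the rule did not use, overlapped 19.4% of gained regions in both libraries (280 of 1443, interval 17.4 to 21.5%), 22.1% of lost regions (21.3 to 23.0%) and 62.9% of kept regions (61.9 to 63.9%). Neither H3.3-HA library overlapped 58.2% of the gained regions. These libraries had the fewest tags, so a missing call does not show that H3.3 is absent. The sets differed in width, so the shares were also read within width classes. Between 501 and 700 bp they were 11.9% of gained and 11.7% of lost regions, and between 701 and 1000 bp 16.5% and 14.8%. From 1001 to 2000 bp they were 25.0% and 25.4%, and above 2000 bp 43.2% and 44.0%. The gained and lost intervals overlapped in every class. Kept regions were at 24.9%, 36.5% and 71.1% in the classes from 701 bp, above the intervals of both other sets from 1001 bp, and the narrowest class held 12 of them. The widest class has no upper limit, and kept regions ran up to 63345 bp, against 7393 bp for gained and 10428 bp for lost. That class therefore does not match kept regions to the others in width. The H3.3-HA libraries came from cells with H3.3, so they show where H3.3 lies in the absence of the deletion.

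**Figure D2:**
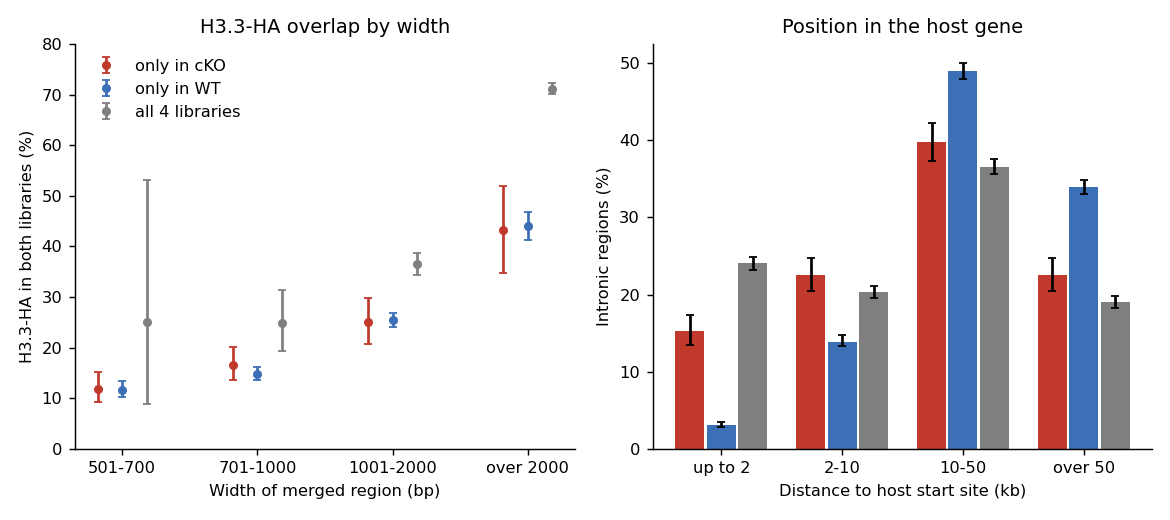
Left, percent of intronic regions overlapped by H3.3-HA in both libraries (y axis) by width of the merged region (x axis, bp), for regions called only in cKO (gained), only in WT (lost) and in all 4 libraries (kept). Points are shares and bars Wilson 95% intervals, and gained and lost points sit together in each class, at 11.9% and 11.7% in the narrowest and 43.2% and 44.0% in the widest. Right, percent of the same sets (y axis, bars from 0, with Wilson 95% intervals) by distance of the midpoint from the nearest host start site (x axis, kb), where 15.3% of gained and 3.11% of lost regions fall within 2 kb.

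The wide gained regions with H3.3-HA in both libraries were led by Fam214b and Csk. At Fam214b the gained region (chr4:43039064-43046456) spanned 7393 bp of intron 1 and reached the promoter, with 5576 and 7192 bp called in the cKO libraries and 3586 and 6062 bp of H3.3-HA. Csk, which encodes the kinase that holds SRC-family kinases inactive, held a pair of gained regions of 7116 and 3141 bp in intron 2 (chr9:57640546-57647661 and chr9:57637063-57640203). H3.3-HA covered 2565 and 4646 bp of the wider of these. Fam120a (5764 bp, intron 1), Enthd1 (5457 bp, intron 1), Vps26a (4988 bp, intron 1) and Dedd2 (4694 bp, intron 2) completed the set of 6. Among the 10 widest gained regions, that of Kctd19 (6821 bp) and that of Ifi44 (4567 bp) had no H3.3-HA call in either library.

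The 1443 gained regions fell in 1192 host genes, 12.8% of the 9284 genes with any intronic H3K27ac region, while 3850 genes (41.5%) hosted a lost region. A single gained region was found in 1001 hosts, 191 hosts held several and 46 held at least 3. Of the hosts 604 (50.7%) also held a lost intronic region, beside the 41.5% of all genes. A kept region was held by 713 of the hosts and by 4715 of the 9284 genes (50.8%). The number of intronic regions per gene was not adjusted for in these shares. Within 10 kb of another gained region lay 175 regions (12.1%), and 45 regions had more than a single possible host, of which the shortest gene was taken.

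The hosts with the most gained regions held 4 or 5 each, and several, such as Itpr1 and Pde4d, are long genes. Itpr1, the IP3 receptor that releases calcium from the endoplasmic reticulum, held 5, from 546 to 1155 bp wide and from 75.6 to 253 kb from its nearest start site. Mtus1, which encodes a microtubule-associated protein, also held 5, of which the widest measured 2001 bp. Pde4d, a phosphodiesterase that degrades cAMP, held 4, and Plcg2, the phospholipase that produces IP3 downstream of immune receptors, held 4 between 504 and 888 bp. Fam107b, Fndc3a and the GTPase-activating gene Arhgap26 held 4 each, and Fndc3a also held 6 lost and 9 kept regions. Gm20388 was listed with 5, but it is annotated across more than 4 Mb of chromosome 8, so these regions cannot be assigned to it with confidence.

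At Myb, Gfod1, Grap2 and Mtus1 no intronic region was lost and none was kept. Myb encodes a transcription factor of hematopoietic progenitors. Its 4 gained regions lay in introns 1, 5, 8 and 14 and measured 858, 918, 742 and 873 bp, with 501 to 742 bp called in cKO replicate 1 and 501 to 918 bp in cKO replicate 2. The nearest WT call to any of them was 52796 bp away, and no WT H3K27ac region, no H3K36me3 region and no H3.3-HA region touched the Myb body. Gfod1 held 4 along its single intron of 102000 bp, from 525 to 2487 bp wide. Grap2, an adaptor protein of hematopoietic signalling, held 4, the widest of 2590, 2467 and 1944 bp, and its start site lay in a call of both cKO libraries, while WT replicate 1 had a call that ended just upstream of it.

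Of 18 progenitor markers 7 had an intronic region and 4 hosted a gained one (57.1%, interval 25.0 to 84.2%), beside 12.8% of all genes. These were Myb, Erg and Fli1, transcription factors of progenitors and endothelium, and Cd34, a surface glycoprotein of progenitors. Together they held 9 of the 63 intronic regions of the list, 14.3% (7.70 to 25.0%), beside 2.35% of all intronic regions. Erg held 3 in intron 2, the widest of 4218 bp with 1349 bp called in cKO replicate 1 and 4218 bp in cKO replicate 2, and Cd34 held a region of 1113 bp in intron 1. Fli1 differed, with 8 kept regions, 3 lost ones and a gained region of 830 bp whose nearest WT call was 304 bp away. Of the 7 genes 3 hosted a lost region (42.9%), beside 41.5% of all genes, and Fli1 alone hosted both a gained and a lost region. No H3K36me3 region lay on Myb, Erg or Cd34 in any of the 4 libraries, while Fli1 was covered over 62.9% and 67.1% in WT and 56.0% and 81.4% in cKO.

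Interferon response genes hosted gained regions at a higher share than all genes, counted by gene or by region. Of 89 such genes with an intronic region, 20 hosted a gained one (22.5%, interval 15.0 to 32.2%), against 12.8% of all genes, and 8 hosted a lost one (8.99%, 4.63 to 16.7%), against 41.5%. Counted by region, 22 of their 325 intronic regions were gained, or 6.77% (4.51 to 10.0%), against 2.35%. The regions were 506 to 4567 bp wide with a median of 934 bp, 8 lay in first introns and 5 reached a promoter window. A WT call lay within 1 kb of 9 and none within 10 kb of 7, and H3.3-HA overlapped 3 in both libraries and 14 in neither. The shares of interferon and of all genes come from the choice of the regions and carry no test.

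Several of these genes had no WT call nearby. Ifi44, an interferon-induced antiviral protein, held the widest, from 151745755 to 151750321 on chromosome 3, which ran from its promoter across the first introns. It was called over 2882 bp in cKO replicate 1 and 4567 bp in cKO replicate 2, with the nearest WT call 12120 bp away. Slfn1, a Schlafen gene linked to lymphocyte growth control, held a region of 3833 bp in its only intron (2565 and 3833 bp called), 37425 bp from a WT call. Ifi213, a member of the family of nucleic acid sensors of the Ifi200 cluster, held regions of 2402 and 647 bp, and the wider was called over 2396 and 2315 bp. Gbp6, a guanylate-binding GTPase of defense against intracellular pathogens, held a region of 2329 bp (2056 and 2322 bp called), 61919 bp from a WT call. Slfn5 followed with 1297 bp, called over 1297 and 1181 bp and 20604 bp from a WT call. In all 5 genes the gained region, at Ifi213 the wider, reached the promoter window.

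In the other interferon hosts the gained region did not reach a promoter window, and a WT call was often close. Sp100, a nuclear body protein, held 2634 bp in intron 11, called over 2634 and 650 bp, with a WT call 319 bp away. Parp14, an ADP-ribosyltransferase, held 1341 bp in intron 9, with a WT call at 145 bp. Lgals9 (1295 bp, intron 1) had a WT call at 382 bp and Samd9l (887 bp, intron 1) at 90 bp. Oas1a and Oasl2, of the family of sensors of double-stranded RNA, held 1104 and 547 bp and 1343 bp respectively. Mx1, a dynamin-like antiviral GTPase, held 813 bp in intron 3. Adar, Gbp5, Rnf213 and Trim30a held the shortest, of 506, 524, 520 and 527 bp, each a single 501 bp call in both cKO libraries. Ifi203, Tor3a and Herc6 held 981, 768 and 863 bp.

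The other lists looked different by gene and by region. Of 66 actin, adhesion and migration genes 16 hosted a gained region (24.2%, interval 15.5 to 35.8%), as did 16 of 70 kinase and phosphatase genes (22.9%, 14.6 to 34.0%) and 7 of 29 macrophage identity genes (24.1%, 12.2 to 42.1%). These genes held 19.0, 14.2 and 10.3 intronic regions each on average, against 6.62 over all genes, and by region the gained shares were 2.08%, 2.52% and 2.35%, beside 2.35% over all. Their hosts included Csk, Ptpre, Rptor, Arhgap15, Myo9b and Fmnl2, and among macrophage genes Cx3cr1, Cd36, Csf1r and F13a1. The Csf1r region measured 714 bp and lay 339 bp from a WT call. The Cx3cr1 region measured 1611 bp and lay 66.0 kb from the nearest Cx3cr1 start site, in an intron of 147651 bp. It reached a promoter window, which at that distance is not one of Cx3cr1, so it cannot be assigned to that gene with confidence. All 3 lists had more hosts of lost regions, 46 of 66, 46 of 70 and 19 of 29.

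None of 31 sterol and lipid synthesis genes hosted a gained region (0%, upper bound 11.0%), and 17 hosted a lost one. The next 4 lists had intervals that held the 12.8% of all genes, and by region the 2.35% of all intronic regions. Of 27 NF-kappaB and inflammatory genes 2 did (7.41% by gene and 1.53% by region), Rel and Traf6, with regions of 1448 and 527 bp. Of 33 DNA damage and p53 target genes 4 did (12.1% by gene and 1.70% by region), namely Pmaip1, the BH3-only killer NOXA, at 2757 bp, Atf3 at 2124 bp, Mdm2, the ubiquitin ligase of p53, at 935 bp, and Mre11a at 546 bp. Of 61 cell cycle and replication genes 10 did (16.4%, 9.16 to 27.6%, and 2.96% by region), led by Ccnd2, which encodes cyclin D2, at 1701 bp, Tipin at 1099 bp and Pold1 at 1094 bp. Of 18 osteoclast and dendritic cell fusion genes 4 did (22.2% by gene and 3.10% by region), among them Tfec (1555 bp) and Atp6v0d2 (704 bp). Markers of other cells were sparse, with Hdc of mast cells (680 bp) and Mmp8 of neutrophils (636 bp) as the hosts, and none among the few B cell, T and natural killer cell, dendritic cell and fibroblast genes with an intronic region.

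Genes whose RNA differed between cKO and WT cells on day 7 of culture, in RNA libraries outside this series and used here as symbols only, differed widely in how often they hosted gained regions. Of 193 genes with higher RNA and an intronic region, 59 hosted a gained region (30.6%, interval 24.5 to 37.4%) and 53 a lost one (27.5%, 21.7 to 34.2%). Of 168 genes with lower RNA, 13 hosted a gained region (7.74%, 4.58 to 12.8%) and 91 a lost one (54.2%, 46.6 to 61.5%). By region 9.01% (7.51 to 10.8%) of the 1176 intronic regions of RNA-higher genes were gained, against 1.31% (0.785 to 2.19%) of the 1065 of RNA-lower genes and 2.35% of all. Without regions that reached a promoter window, 48 of the RNA-higher genes (24.9%) and 11 of the RNA-lower genes (6.55%) remained hosts, beside 11.2% of all genes. These lists were drawn from cells of the same genotypes, so they are a related measurement and not a separate experiment on H3K27ac. Only 5 genes with an intronic region were in both the interferon and the RNA-higher list, of which Ifi44, Ifi213, Gbp6 and Slfn1 were hosts.

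The RNA-higher hosts with the greatest gained length were Grap2 (7548 bp), Atp8b4 (7063 bp), Kctd19 (6821 bp) and Gfod1 (6095 bp). Kctd19 held a single region of 6821 bp from its promoter into intron 1, called over 5852 and 5770 bp. Atp8b4, which encodes a lipid flippase, held 3, the widest of 3946 bp called over 874 and 3946 bp. Other hosts with higher RNA were Trem1 (3696 bp), an amplifying receptor of myeloid inflammation, Pecam1 (3734 bp), an adhesion molecule, and Ly6c2 (1751 bp), a surface protein of inflammatory monocytes, named here after their values were seen. The 13 RNA-lower hosts included Hpgd (2313 bp), which inactivates prostaglandins, H3f3a, Gng7 (1497 bp) and Abtb1 (1158 bp).

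**Figure D3:**
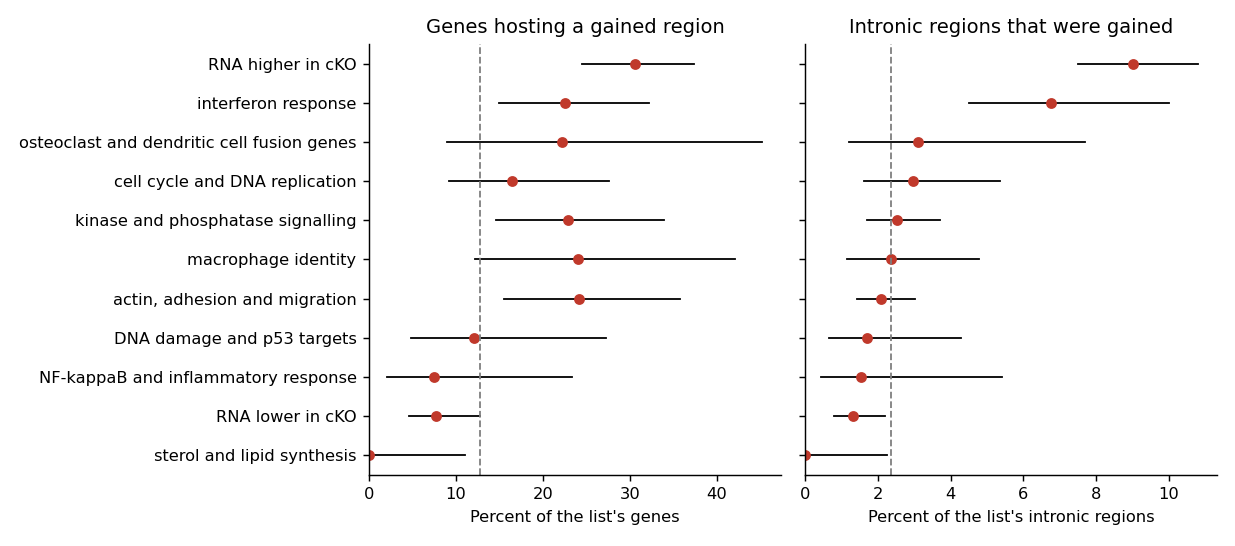
Percent of each list's genes that hosted a gained intronic region (left) and percent of each list's intronic regions that were gained (right), for the 11 lists with at least 100 intronic regions. Points are shares, lines Wilson 95% intervals and dashed lines the shares over all genes (12.8%) and all intronic regions (2.35%). The RNA-higher and interferon lists lie to the right of both dashed lines, at 9.01% and 6.77% by region, while the actin, kinase and macrophage lists lie right of the line by gene and near it by region.

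H3K36me3 gave a measurement that the rule did not use. The percent of the summed length of gained regions covered by H3K36me3 was 25.6 and 25.6 in WT and 17.8 and 29.5 in cKO (means 25.6% ± 0.0205 and 23.7% ± 8.24, SD, n = 2 each). The WT values lay between the cKO values, the difference was -1.91 percentage points and the two-sided exact permutation p was 1.00, where the smallest that 2 against 2 libraries can give is 0.333. Without cKO replicate 1 the difference became 3.91 points. Lost regions were covered over 45.0% and 46.4% in WT and 26.0% and 45.3% in cKO, and 52.5% of gained regions, against 35.3% of lost ones, had no H3K36me3 call in any library.

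Over the bodies of the 1192 host genes the mean coverage was 36.6% and 38.1% in WT and 22.5% and 38.2% in cKO, a difference of -7.02 points with an exact permutation p of 1.00. Without cKO replicate 1 it was 0.857 points. Over all 9284 genes with an intronic region the difference was -7.15 points. Of 1062 hosts with any H3K36me3, 91 (8.57%) had higher coverage in both cKO than in both WT libraries and 426 (40.1%) lower coverage, beside 7.65% and 40.5% over all genes, both shares near the background.

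At the interferon hosts coverage was mostly higher in cKO. Their mean H3K36me3 coverage was 53.3% and 53.3% in WT and 62.4% and 73.2% in cKO, and both cKO libraries lay above both WT libraries. Of the 19 with any H3K36me3, 11 (57.9%) were higher in both cKO libraries and 0 were lower. The count was 11 with cKO replicate 1 alone set against both WT libraries, where 8.05% of all genes were higher, and 18 with cKO replicate 2 alone, where 41.0% were. With cKO replicate 1 alone 6 of the hosts were lower (31.6%), beside 83.1% of all genes. Ifi44 had no H3K36me3 in WT and 73.1% and 94.2% coverage in cKO. Ifi213 had 11.5% and 10.6% in WT, far downstream of its gained regions, and 76.2% and 88.5% in cKO, and Gbp6 none in WT and 7.20% and 31.1% in cKO. Differences were smaller at Herc6 (39.7% and 38.5% in WT, 57.0% and 60.5% in cKO), Mx1 (77.2% and 63.0%, 88.2% and 90.6%) and Lgals9 (62.9% and 70.4%, 80.5% and 85.0%). Slfn1 had no H3K36me3 region in any library. At Adar and Rnf213 the WT and cKO ranges overlapped. The interferon hosts were chosen by H3K27ac called only in cKO, and interferon genes without a gained region were not set beside them.

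Among the 59 RNA-higher hosts, 41 had any H3K36me3, of which 19 (46.3%) were higher in both cKO libraries and 5 (12.2%) lower, beside 7.65% and 40.5% of all genes. With cKO replicate 1 alone set against both WT libraries 20 were higher and 14 (34.1%) lower, where 83.1% of all genes were lower, and with cKO replicate 2 alone 28 were higher and 5 lower. Their mean coverage was low, 9.06% and 9.81% in WT and 10.2% and 17.9% in cKO. Ccnd2 had none in WT and 9.22% and 46.8% in cKO, while Itpr1 had 1.33% and 1.50% in WT and 4.56% and 14.8% in cKO. Myb, Gfod1, Kctd19 and Cd34 had none in any library. Of the 12 RNA-lower hosts with H3K36me3, 0 were higher and 7 (58.3%) were lower in both cKO libraries, beside the same 7.65% and 40.5%. Both sets of hosts were chosen by RNA of the same genotypes and by H3K27ac called only in cKO. H3K36me3 covers transcribed gene bodies, so its direction here is not separate from that choice. RNA-higher and RNA-lower genes without a gained region were not set beside them.

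**Figure D4:**
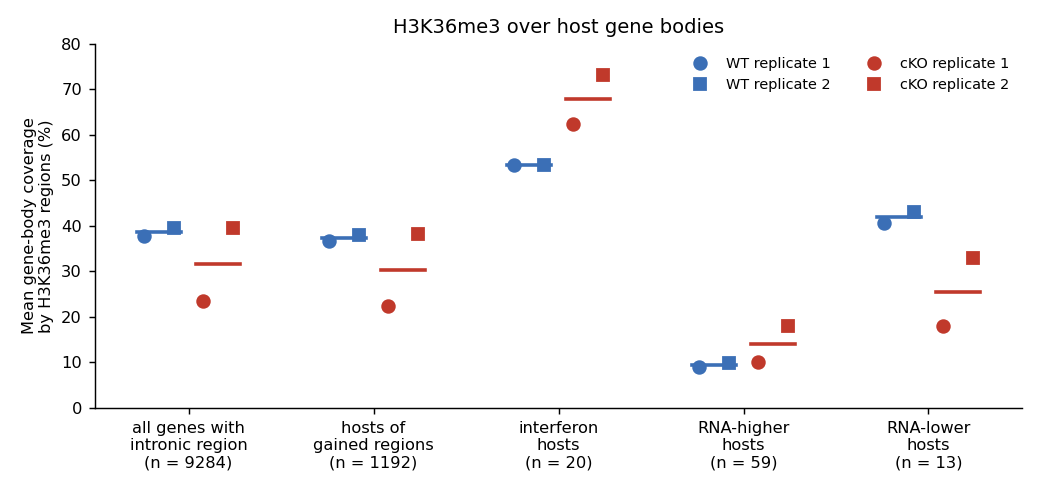
Mean percent of gene body covered by H3K36me3 regions (y axis) in each library, for all genes with an intronic H3K27ac region, hosts of gained regions, and hosts in the interferon, RNA-higher and RNA-lower lists (x axis, n genes). Points are libraries, circles replicate 1 and squares replicate 2, blue WT and red cKO, and lines are means of the pair. Both cKO points lie above both WT points for the interferon hosts (62.4% and 73.2% over 53.3%) and below them for the RNA-lower hosts.

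At the gained regions themselves, 19 (1.32%, interval 0.845 to 2.05%) were overlapped by H3K36me3 in both cKO and neither WT library, beside 1.14% of all intronic regions, and 49 (3.40%) showed the opposite, beside 4.44%. The share with new H3K36me3 was thus near the background. The 19 lay in 19 genes, 3 of which were in the interferon list, Ifi44, Lgals9 and Herc6. At Ifi44 H3K36me3 covered 2361 and 3096 bp of the gained region in the cKO libraries, at Lgals9 597 and 412 bp and at Herc6 435 and 355 bp. Dtl, which encodes a substrate receptor of a ubiquitin ligase that acts in S phase, had 501 and 888 bp on its region of 1790 bp, and 5.08% and 4.60% of its gene body was covered in WT against 20.4% and 50.9% in cKO. Spc25, a kinetochore protein, had 292 and 975 bp on a region of 975 bp. The others among the 10 widest were at Atl3 (3363 bp), Itpkb (2251 bp), Best1 (1562 bp), Def6 (1498 bp), Snx30 (1371 bp) and Coq2 (960 bp), and Atl3 and Itpkb had lower gene-body coverage in both cKO libraries.

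**Figure D5:**
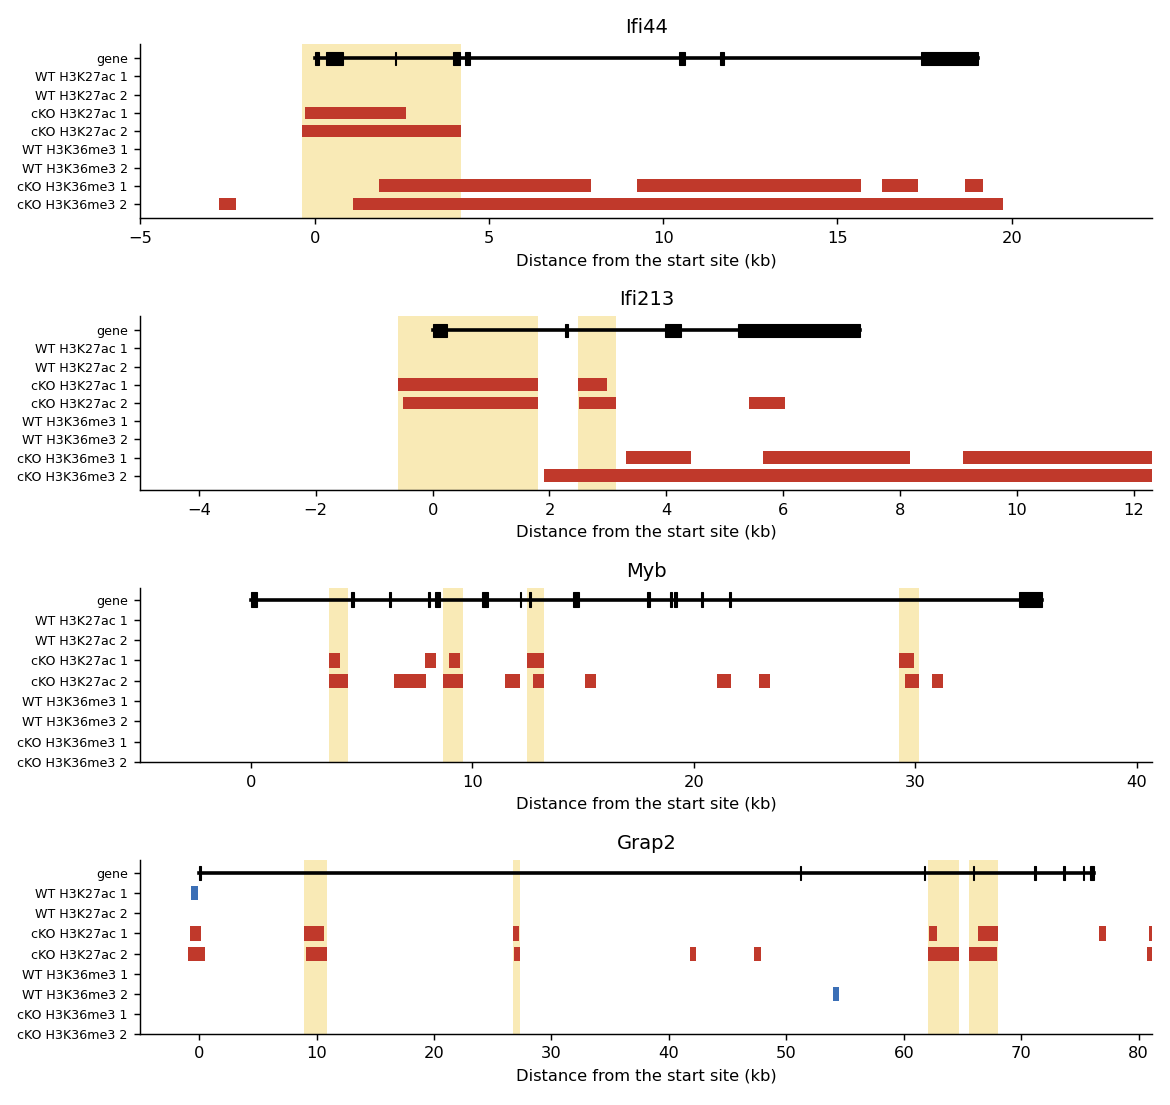
Called regions of H3K27ac and H3K36me3 in each library along Ifi44, Ifi213, Myb and Grap2 (x axis, distance from the start site of the host transcript in kb, in the direction of transcription), with the gene and its exons in black, WT regions in blue, cKO regions in red and gained intronic regions shaded. The host transcript is drawn, with a short flank, and at Ifi213 it is shorter than the annotated gene, so the WT H3K36me3 calls in the far part of that gene (11.5% and 10.6% of its body) lie outside the panel. Within these windows Ifi44 and Ifi213 show H3K27ac and H3K36me3 in the cKO libraries alone, and Myb shows 4 gained regions with no H3K36me3 in any library. At Grap2 a WT H3K27ac region is drawn just upstream of the start site.

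Motif letters were counted on both strands in the central 300 bp of each region. The ISRE core was present in 4.85% of gained regions (3.86 to 6.08%), 5.25% of lost, 5.73% of kept and 4.86% of all intronic regions, the last within the interval of the gained regions. Over whole regions it was present in 5 of the 22 regions of interferon genes (22.7%, 10.1 to 43.4%) and in 14.3% of all gained regions (12.6 to 16.2%), intervals that overlap. The ETS-IRF composite GGAANNGAAA, bound by PU.1 together with IRF factors, was present in 4.02% of gained regions (3.12 to 5.16%). It was present in 3.36% of lost, 3.96% of kept and 2028 of the 61425 intronic regions. Searched over whole regions, it was present in 5 of the 22 regions of interferon genes (22.7%, 10.1 to 43.4%). These lay in Ifi44, Slfn1, Sp100, Parp14 and Trim30a. The whole-region share of all gained regions was 10.4% (8.92 to 12.1%), and the intervals overlap. PU.1 sites were present in 4.09% of gained regions (3.18 to 5.24%), against 3.23% of lost (2.89 to 3.61%), 3.35% of kept and 2.87% of all intronic regions (2.74 to 3.01%). Without cKO replicate 1 the gained share was 2.67% and without cKO replicate 2 it was 2.59%, both under the 2.87% above. That 2.87% is of the merge of 4 lists, and the share of all intronic regions in the smaller merges was not computed. With promoter-reaching regions left out of the main set the gained share was 4.41% (3.41 to 5.69%), against 4.04% of kept regions (3.57 to 4.56%). PU.1 is the factor that opens many macrophage enhancers.

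The AP-1 site TGANTCA was present in 11.4% of gained and 11.2% of all intronic regions, and C/EBP letters TTGCNNAA in 11.2% and 12.6%. RUNX letters TGTGGTT stood at 8.11% and 7.88%, the E-box CACGTG at 3.60% and 3.33%, TCANGTGA of MITF and TFE factors at 4.16% and 3.77%, GGGANTTTCC of NF-kappaB at 0.416% and 0.257% and the p53 letters CATGNNNNNNCATG at 1.25% and 1.29%. The CRE was rare, in 10 gained regions (0.693%, 0.377 to 1.27%), 10 lost regions (0.107%, 0.0583 to 0.197%), 0.283% of kept and 0.164% of all intronic regions (0.135 to 0.200%). The gained share was 0.327% without cKO replicate 1 and 0.209% without cKO replicate 2. The CRE contains a CpG, and gained regions held 1.44 CpG per 100 bp against 0.749 in lost ones. Without promoter-reaching regions the CRE shares were 0.552% (0.267 to 1.13%) of gained and 0.110% (0.0595 to 0.201%) of lost regions. The C/EBP and AP-1 letters can share bases with other motifs, and the ISRE core and the ETS-IRF composite can overlap.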

How the data were processed

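The files are region lists, 1 for each of 10 CUT&RUN libraries. Per the methods the authors trimmed reads with cutadapt, aligned them to mm10 with Bowtie2 and called regions with HOMER in histone mode, and per the file headers each list was called separately against an IgG control named by genotype. By those headers peaks were 500 bp long, at least 1000 bp apart and enriched at least 4-fold over the control. Regions were stitched from peaks, and the score column is constant, so no signal per region was used. The deposited start and end, in bp, were the only values used, and tag totals came from the headers. The 5 IgG samples of the 15 were not analysed here.

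Lists of H3K27ac were merged where regions overlapped or touched. Midpoints were placed with the basic GENCODE M21 annotation of mm10, the shortest gene being the host. Coordinates are 1-based. Coverage is the percent of length covered by called regions. Motifs and base content were read from GRCm38, the assembly of mm10. Differences between libraries used a two-sided exact permutation test, and shares carry Wilson 95% intervals that cover counting error only. No read count per region was used, so no depth-based interval is given. Merging, coverage and motif search were tested on simulated data. Python 3 with pandas, scipy and pysam was used.

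The members and lists were chosen with earlier results of these data known, and the gene lists were written from general knowledge. RNA lists gave 355 and 248 symbols, of which 339 and 228 matched a protein-coding gene. Named genes were the 10 hosts with the most gained regions, hosts of the 10 widest, every interferon host (1 is not reported here), up to 4 hosts of each other list by summed length, up to 10 with new H3K36me3 and 6 with H3.3-HA. Alternatives changed the overlap rule, the distance to WT regions, the minimum width, the list length, the annotation, the libraries, the H3.3-HA overlap, the motif window and the replicate block. Leaving out regions that reach a promoter window, and all alternatives for the gene lists, were added after seeing the data.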

Additional observations from a re-analysis of the deposited data

How the results depend on the processing

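The number of gained intronic regions was 939 with no WT region within 1 kb and 621 with called regions under 1 kb left out. It was 2063 with lists cut to the shortest, keeping the widest regions. Leaving out an H3K27ac library, which eases the rule, gave 2111 to 7333, the highest without cKO replicate 1. The share with H3.3-HA in both libraries was 38.0% with called regions under 1 kb left out, 22.3% with lists cut to the shortest, 9.15% when 50% of the region had to be covered and 9.57% to 24.7% without a library. The interferon share of hosts was 1.75 times that of all genes and became 3.37 times with called regions under 1 kb left out. It was 1.56 times with no WT region within 1 kb and 1.61 times without promoter-reaching regions. Without a library it was 1.32 to 1.65 times, and under the other alternatives 1.69 to 1.86 times. The RNA-higher share was 2.38 times that of all genes, 3.18 times with no WT region within 1 kb, and 1.35 to 1.91 times without a library. The RNA-lower share, 0.603 times, was 0.340 times without called regions under 1 kb. Searching whole regions raised the motif shares to 14.3% (ISRE core), 28.3% (AP-1), 12.8% (PU.1) and 1.46% (CRE), by the longer sequence searched. PU.1 was 5.54% with no WT region within 1 kb. Without a library AP-1 ranged from 9.73% to 11.9%, PU.1 from 2.59% to 3.97% and CRE from 0.209% to 0.506%.

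H3K36me3 coverage of gained regions, -1.91 points, became 3.66 points with called regions under 1 kb left out and ranged from -7.74 to 3.91 points without an H3K36me3 library, and that of host bodies, -7.02 points, from -14.9 to 0.857. In both, the sign turned without cKO replicate 1. With the replicate block the differences were -1.91 and -7.02 points, each with an exact permutation p of 1.00. The labels give no shared animal or day for a number, and deviations of same-numbered libraries correlated at 0.02 over regions, so the numbers were not taken as pairs. Other alternatives kept the direction. The cause of these shifts was not tested.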
